A study of Mus musculus with 2 samples.

Results

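In CUT&RUN profiles of mouse hypothalamus, 280 of the 11379 regions called with an antibody against Otp also overlapped, by at least 1 bp, a region called in the IgG control. These 280 shared regions (2.46% of the Otp list, exact 95% binomial interval 2.18 to 2.76%) are described here by where they lie and how the signals of the 2 libraries compare there. The shared regions met 280 of the 291 IgG regions (96.2%, 93.3 to 98.1%). The other 11 IgG regions had no Otp partner.

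The series has 2 samples. Per the labels, both hold nuclei of neurons from the PVN (the paraventricular nucleus, a part of the hypothalamus) of mice of WT (wild-type) genotype. One received an antibody against Otp and the other received IgG, with no other allele, treatment or age given. The series was made to ask whether Otp binds at the promoter of Mc4r. There is 1 library per antibody, so the differences below could not be checked in replicates or tested between samples. Intervals are 95% intervals that cover counting error only.

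In CUT&RUN an antibody tethers a nuclease to chromatin in permeabilised nuclei, and the DNA that the nuclease releases is sequenced. IgG has no specific target, so its reads come from DNA that is cut or recovered without a bound antigen, such as open promoters, repeats present in many copies and mitochondrial DNA. Otp (Orthopedia) is a homeodomain transcription factor required as neurons of the PVN develop, and regions called in both libraries are usually set aside before its binding is interpreted.

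The measure of signal is the pileup, the number of tags (reads or fragments, whichever the authors' caller counted) stacked at a region's summit. It was worked out from the deposited fold enrichment and p as a whole number for 11221 Otp regions (98.6%) and 280 IgG regions (96.2%), and in both libraries for 268 shared regions. As genome background, the Otp library had 0.512 tags and the IgG library 0.0873 tags. Their ratio, IgG over Otp, was 0.171, and it serves below as the yardstick for how the 2 libraries differ in depth. The total number of reads is unknown.

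Shared regions that lay on gene starts did so mostly over windows that hold a CCAAT box, a short promoter element known to be bound by the factor NF-Y. The 6 windows printed next are those under the 5 shared start-site regions with the highest IgG −log10 q, followed by the highest one without such a box. Each runs 5′ to 3′ on the strand of the gene, from 250 bases before the annotated start to 50 after it, taken from RefSeq for GRCm38.p6. Capitals mark CCAAT or its reverse complement ATTGG. The windows lie at chr7:113207215-113207514 (Arntl, plus strand), chr3:146404392-146404691 (Ssx2ip, plus), chr19:4793960-4794259 (Rbm4, minus), chr2:92434020-92434319 (Cry2, minus), chr4:123917183-123917482 (Rragc, plus) and chr19:53142506-53142805 (Add3, plus).
Arntl: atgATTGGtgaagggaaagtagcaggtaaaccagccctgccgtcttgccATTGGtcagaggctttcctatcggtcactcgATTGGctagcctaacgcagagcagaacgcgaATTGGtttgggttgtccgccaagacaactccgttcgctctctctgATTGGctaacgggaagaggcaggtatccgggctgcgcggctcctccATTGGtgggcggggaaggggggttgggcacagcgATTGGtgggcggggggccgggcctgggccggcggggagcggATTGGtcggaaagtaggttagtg
Ssx2ip: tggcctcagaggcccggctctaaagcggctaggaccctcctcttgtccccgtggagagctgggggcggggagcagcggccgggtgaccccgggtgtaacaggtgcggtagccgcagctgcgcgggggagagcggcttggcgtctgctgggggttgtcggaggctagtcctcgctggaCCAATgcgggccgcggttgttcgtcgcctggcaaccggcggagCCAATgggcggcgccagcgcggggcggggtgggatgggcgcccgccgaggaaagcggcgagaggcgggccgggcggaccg
Rbm4: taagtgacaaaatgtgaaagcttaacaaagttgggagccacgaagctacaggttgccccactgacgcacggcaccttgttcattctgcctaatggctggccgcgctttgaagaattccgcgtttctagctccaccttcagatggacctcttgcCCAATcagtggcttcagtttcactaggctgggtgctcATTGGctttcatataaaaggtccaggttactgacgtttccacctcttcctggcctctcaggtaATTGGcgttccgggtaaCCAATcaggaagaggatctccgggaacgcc
Cry2: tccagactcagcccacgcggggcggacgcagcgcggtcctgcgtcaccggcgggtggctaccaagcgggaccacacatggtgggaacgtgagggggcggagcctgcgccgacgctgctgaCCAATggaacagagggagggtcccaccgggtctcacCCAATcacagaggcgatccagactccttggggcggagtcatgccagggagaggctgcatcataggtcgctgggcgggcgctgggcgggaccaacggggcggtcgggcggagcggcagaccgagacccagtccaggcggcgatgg
Rragc: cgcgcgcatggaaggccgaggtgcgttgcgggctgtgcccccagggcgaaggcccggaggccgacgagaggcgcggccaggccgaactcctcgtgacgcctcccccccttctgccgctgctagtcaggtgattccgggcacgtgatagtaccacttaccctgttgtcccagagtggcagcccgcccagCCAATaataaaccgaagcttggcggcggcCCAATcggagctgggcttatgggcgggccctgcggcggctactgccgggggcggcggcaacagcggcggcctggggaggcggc
Add3: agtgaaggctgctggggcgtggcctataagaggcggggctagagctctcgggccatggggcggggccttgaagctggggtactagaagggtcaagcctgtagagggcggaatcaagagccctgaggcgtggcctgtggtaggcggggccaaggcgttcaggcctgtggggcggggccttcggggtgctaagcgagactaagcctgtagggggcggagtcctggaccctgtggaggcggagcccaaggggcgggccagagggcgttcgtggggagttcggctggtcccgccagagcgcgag

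Arntl encodes Bmal1, the activator of the circadian clock, and its window held 8 boxes. The Otp pileup there was 29 tags (95% Poisson interval 19.4 to 41.6) and the IgG pileup was 11 tags (5.49 to 19.7). The stretch covered by both lists ran from 312 to 84 bases before the start, with the IgG summit 144 bases before it. Cry2, a repressor of the same clock, had 2 boxes, with 24 Otp tags (15.4 to 35.7) and 9 IgG tags (4.12 to 17.1). Rbm4, an RNA-binding regulator of splicing, had 4 boxes, with 25 Otp tags and 10 IgG tags. Rragc, a Rag GTPase that signals amino acid supply to mTORC1, had 2 boxes, with 16 Otp tags and 8 IgG tags. Add3, an adducin of the membrane skeleton, had none, with 53 Otp tags and 7 IgG tags. In Ssx2ip, which encodes a centrosome protein, the order was reversed, with 8 Otp tags (3.45 to 15.8) and 10 IgG tags (4.80 to 18.4), and these intervals overlap.

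Gene ends were the most common place of shared and of other Otp regions alike, but the shares of the places differed. Of the 280 regions, 20 (7.14%, 4.42 to 10.8%) were on the mitochondrial genome and 62 (22.1%, 17.4 to 27.5%) lay in 5 nuclear clusters of at least 4 shared regions less than 10 kb apart. The other 11099 Otp regions had 5 (0.0450%) on the mitochondrial genome and 22 (0.198%) in those clusters. Clusters were defined by the shared regions, so their low share among other regions follows from the definition. A further 10 shared regions lay within 4 Mb of position 1 of a chromosome, 21 at the far ends of chromosomes, 65 at gene ends, 44 inside genes and 58 outside genes, each region being counted in the first class it met.

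**Figure D1:**
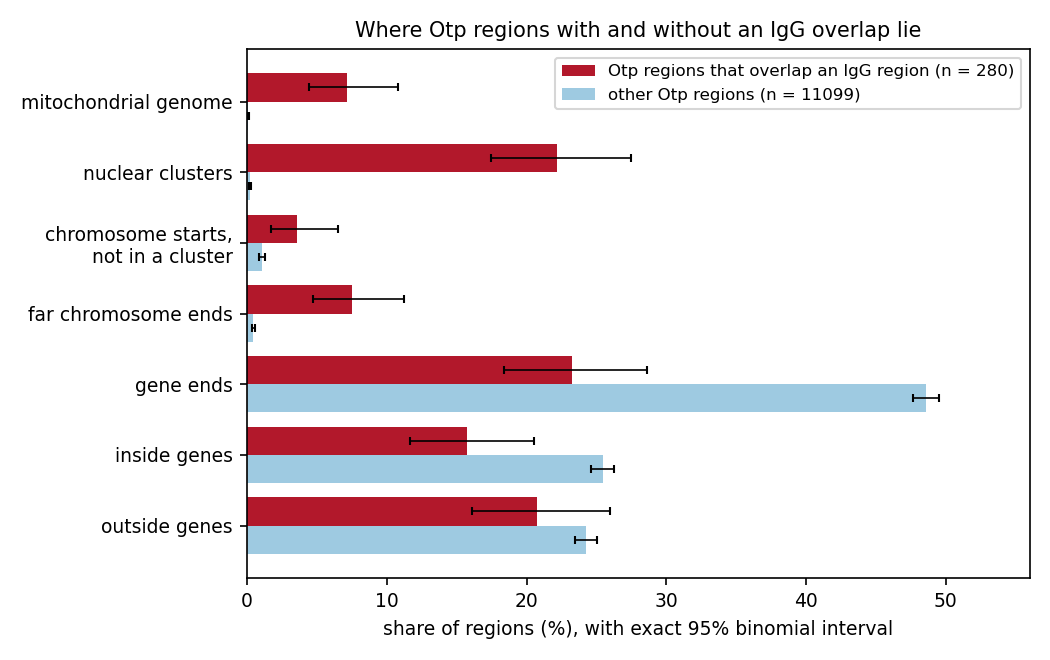
Share of regions (x axis, percent) in 7 exclusive classes of position (y axis) for the 280 shared regions (red) and the 11099 other Otp regions (blue), with exact 95% binomial intervals as bars. Shared regions took larger shares on the mitochondrial genome and at far chromosome ends, and a smaller one at gene ends.

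Gene ends, the main place of Otp regions, held a smaller share of the shared ones. Among nuclear regions, 66 of 260 shared regions (25.4%, 20.2 to 31.1%) put the summit no more than 1 kb from either end of a protein-coding gene, against 5461 of 11094 other Otp regions (49.2%, 48.3 to 50.2%). The background over all 11354 nuclear Otp regions was 48.7%. Shared regions more than 100 kb from such an end, whether inside a gene or not, numbered 86 (33.1%, 27.4 to 39.2%), against 10.9% of the other Otp regions. Clusters weigh on these shares because neighbours are not independent. Counted as 189 nuclear loci, 66 shared loci (34.9%) lay at a gene end. With a reciprocal overlap of 50% as the rule, the share was 7.19%. The IgG regions at gene ends had a median width of 90 bp and the Otp regions over them 282 bp, so most could not meet that rule.

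The share at gene ends also varied with the height of the signal. Outside the clusters, shared regions with 10 to 20 Otp tags lay at gene ends in 14 of 26 cases (53.8%), against 50.4% of other Otp regions of the same height. With 20 to 50 tags the shares were 43.5% (33.2 to 54.2%) of 92 shared regions and 76.1% (74.2 to 77.9%) of the others. With 50 to 100 tags they were 16.3% (7.32 to 29.7%) of 49 shared regions and 72.0% (63.5 to 79.4%) of the others. The gap was widest in the tallest of these 3 ranges.

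The overlap with IgG took in nearly all of the tallest Otp regions. The 50 Otp regions ranked highest by −log10 q were all shared, as were 92 of the highest 100 and 138 of the highest 200 (69%). By pileup, shared regions made up 104 of 134 Otp regions with at least 100 tags (77.6%), 54 of 187 with 50 to 100 (28.9%) and 26 of 6217 with 10 to 20 (0.418%). This describes the members and is no test, since tall signal in either library favours a call in both. The median pileup of shared regions was 64 tags (interquartile range 32 to 346), against 13 tags (10 to 18) in other Otp regions. Shared regions were also wider, with a median of 204.5 bp against 129 bp.

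At the shared regions the IgG pileup had a median of 17 tags (7 to 152). The ratio of IgG to Otp pileup had a median of 0.339 (interquartile range 0.222 to 0.427) and ranged from 0.0588 to 3.86. It lay above the background ratio of 0.171 at 230 of 268 regions, and at 132 of them so did the whole interval of the ratio. Because the smallest IgG pileup was 4 tags, a region of few Otp tags could enter the set only with a high ratio, so the ratios of weak members are set in part by the rule. The summits of the 2 libraries lay close together, 12.5 bp apart at the median (interquartile range 4 to 42), and within 50 bp at 221 regions (78.9%).

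**Figure D2:**
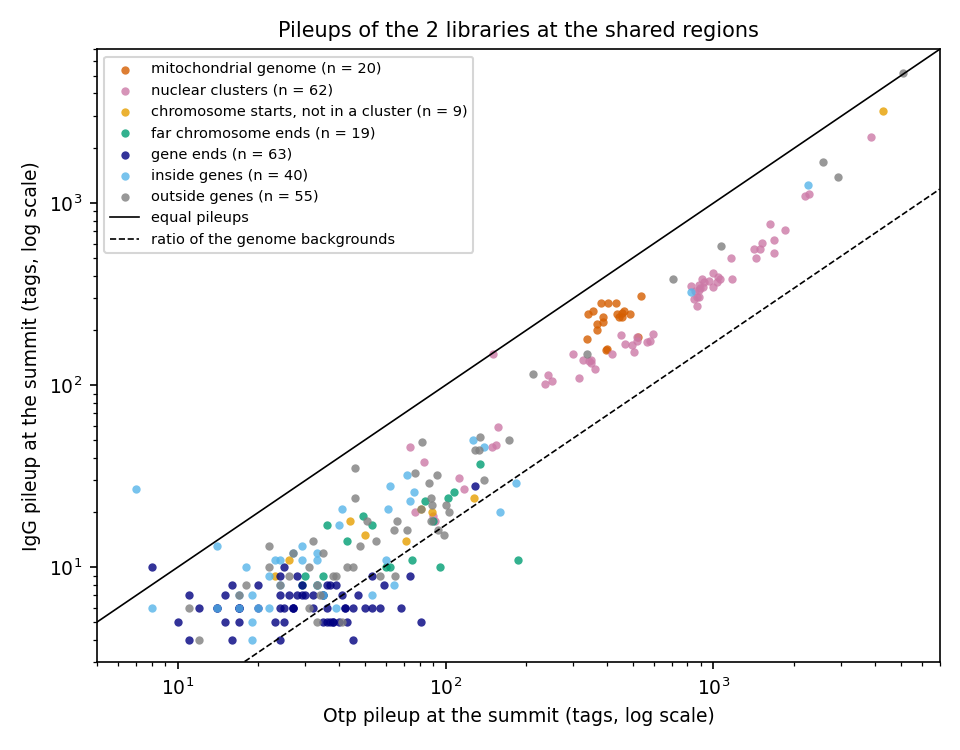
IgG pileup (y axis) against Otp pileup (x axis), both in tags at the summit on log scales, for the 268 shared regions with both values, coloured by class. The solid line marks equal pileups and the dashed line the background ratio of 0.171; 3 regions lie above the solid line.

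The classes differed in that ratio. Mitochondrial regions had the highest median, 0.558, and all 20 lay above 0.171. The IgG list had only 16 regions there, and some of their pileups were paired with several Otp regions, with summits up to 691 bp apart. These 20 ratios are therefore not separate comparisons. In the nuclear clusters the median was 0.376, again with all 62 regions above. Regions at chromosome starts had 0.300, those inside genes 0.366 and those outside genes 0.331. Far chromosome ends had 0.242, with 14 of 19 regions above the background ratio. Gene ends had the lowest, 0.222, with 41 of 63 above and with the interval of the ratio above it at 4. The median gene-end member had 29 Otp tags and 6 IgG tags.

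The local background separated the classes further. It was at the median 357 times the genome background in the Otp library and 1095 times in the IgG library at mitochondrial regions, and 224 times (Otp) and 488 times (IgG) in the nuclear clusters. At gene ends it was 3.05 times in the Otp library and 1.65 times in the IgG library. The ratio of the local backgrounds, IgG over Otp, was 0.524 at mitochondrial regions, 0.377 in clusters and 0.0962 at gene ends. In clusters and on the mitochondrial genome the local backgrounds stood in nearly the same ratio as the summit pileups. At gene ends the ratio was 0.222 for the summit pileups and 0.0962 for the local backgrounds. Gene-end members needed a called IgG region, which had at least 4 tags, beside a median of 29 Otp tags. The rule thus sets their summit ratio in part but not that of the backgrounds, so nothing is concluded from the gap. The local background is the caller's value for the surroundings of a summit and can include the tags of the regions themselves. It was nearly constant across the chromosome 1 cluster, at 76.08 to 76.11 Otp tags. Where regions crowd together, the 2 ratios are therefore not separate measurements.

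The largest cluster lay at the very start of chromosome 9, chr9:3000284-3038248, and held 37 shared regions in 37965 bp. Mouse autosomes carry their centromere at the end where numbering starts, and the assembly there opens with a gap followed by satellite and other repeated DNA. The cluster held 57 Otp and 37 IgG regions. Shared regions there had 327 to 2192 Otp tags (median 883) and 122 to 1099 IgG tags (median 340). The ratio kept within 0.299 to 0.501. The tallest shared region, chr9:3024391-3024638, was the same in both libraries, with 2192 Otp tags and 1099 IgG tags. The first one, chr9:3000284-3000636, was next in both, with 1843 Otp tags and 716 IgG tags. Neighbouring shared summits lay 224 to 3043 bp apart, with a median of 702 bp. The 20 Otp regions of the cluster with no IgG overlap lay among them, such as chr9:3020469-3020572 with 616 tags and chr9:3035366-3035450 with 420 tags. The single annotated gene at its edge is the microRNA gene Mir101c, beginning at chr9:3038669.

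**Figure D3:**
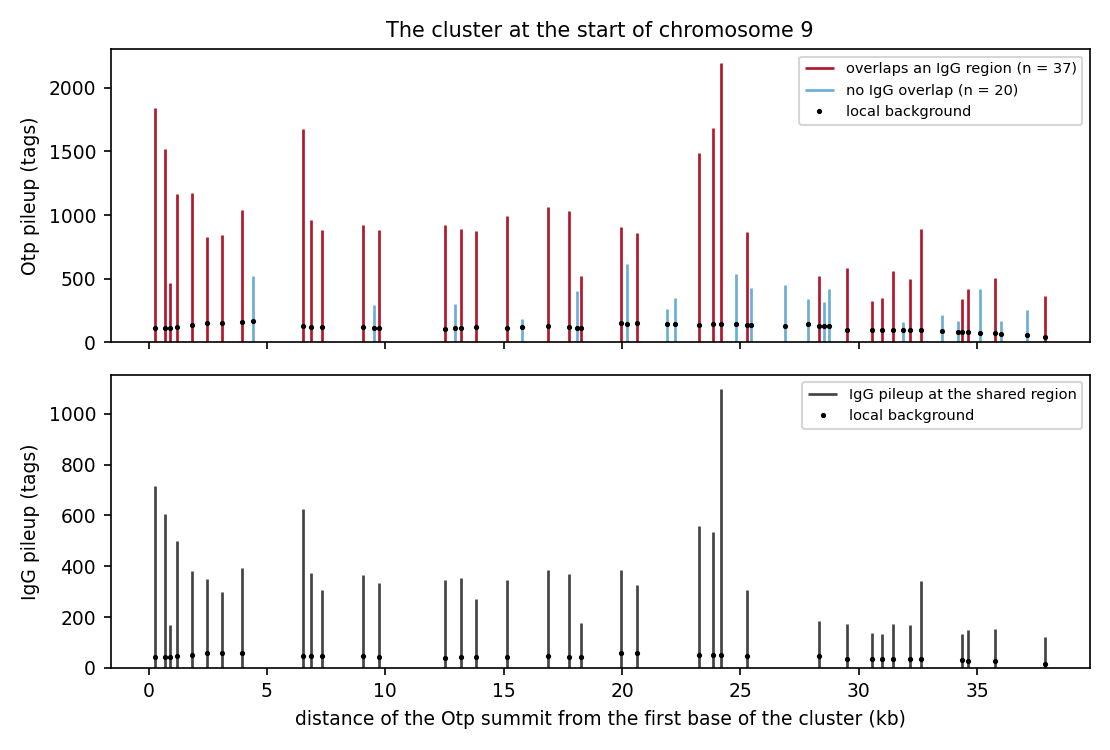
Otp pileup (upper panel) and IgG pileup at shared regions (lower panel), both in tags, against the distance of the Otp summit from the first base of the cluster on chromosome 9 (kb). Red lines are the 37 shared regions, blue lines the 20 Otp regions without an IgG overlap and dots the local background; the tallest shared regions of both panels stand at the same distances.

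A smaller but taller cluster lay on chromosome 14, chr14:19415720-19419392, with 8 shared regions and no annotated gene. They had 452 to 3864 Otp tags and 189 to 2306 IgG tags, with a median ratio of 0.417. The tallest was chr14:19417230-19417402, with 3864 Otp tags and 2306 IgG tags, and next came chr14:19415720-19415939, with 2273 Otp tags and 1119 IgG tags. On chromosome 2, chr2:22587744-22590161 held 6 shared regions inside Myo3a, a gene for an unconventional myosin. They had 74 to 236 Otp tags and 31 to 101 IgG tags, with a median ratio of 0.402. On chromosome 13, chr13:74528691-74530627 held 5 inside the pseudogene Gm20590, with 77 to 154 Otp tags and 18 to 47 IgG tags, and the lowest median ratio of the clusters, 0.231. Lower still in number, the stretch chr17:39843040-39848777 held 2 shared regions among 8 Otp regions. It spans Rn18s-rs5, an annotated pseudogene of ribosomal RNA.

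The fifth cluster lay on chromosome 1 over a pseudogene annotated with the name of a mitochondrial gene. Nuclear copies of mitochondrial DNA are common in mammalian genomes, and reads from mitochondria can align to them. At chr1:24611623-24616114, 6 shared regions covered 82.6% of 4492 bp. They had 151 to 349 Otp tags and 106 to 149 IgG tags, over local backgrounds of 76.1 Otp tags and 36.0 IgG tags. Their median ratio was 0.448, between that of the other nuclear clusters and that of the mitochondrial regions. The annotation places the pseudogene Gm10925 there, with Atp6 and mt-Atp6 among its synonyms, and the pseudogene Gm10222.

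On the mitochondrial genome the regions left a long gap, and the chromosome 1 cluster lines up with it by gene length and spacing. The 20 shared regions had 338 to 537 Otp tags and 157 to 310 IgG tags, over local backgrounds of 129 to 224 Otp tags and 67.4 to 116 IgG tags, so that the deposited fold enrichment in the Otp list was only 1.58 to 3.08. They lay over the ribosomal RNA genes mt-Rnr1 and mt-Rnr2, over ND1, ND2, COX1, ND4, ND5, ND6 and CYTB, the tRNA gene TrnP, and over the stretch with no annotated gene. Across 4592 bp, from chrM:6431 to chrM:11022, neither list had a region. This stretch touched 8 of the 13 protein-coding genes, COX1, COX2, ATP8, ATP6, COX3, ND3, ND4L and ND4. The next longest such stretch was 1350 bp.

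Within the empty stretch, ATP6 is 681 bp long, as is Gm10925, and ND4L is 297 bp long, as is Gm10222. The 2 mitochondrial genes are 1269 bp apart and the 2 pseudogenes 1270 bp apart, in the opposite order along the chromosome. Laid out from the ATP6 ends, the chromosome 1 cluster would correspond to positions 6464 to 10955 of the mitochondrial genome, inside the empty stretch. The sequences themselves were not compared, and whether reads of these genes were placed on chromosome 1 was not tested.

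**Figure D4:**
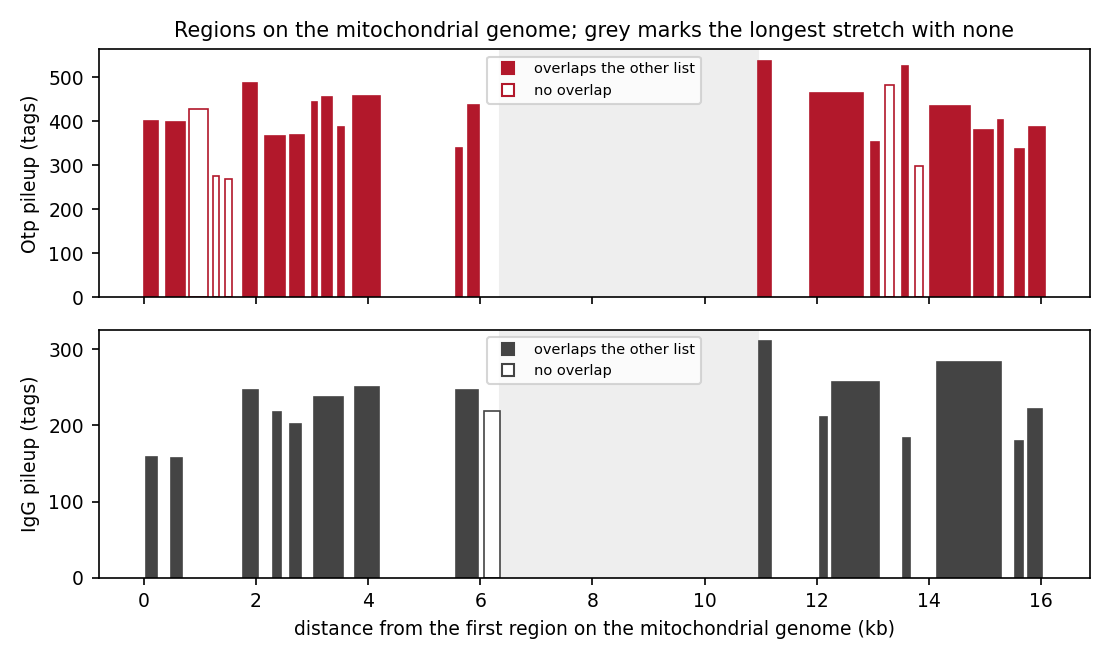
Pileup in tags of the Otp regions (upper panel, 25 regions) and the IgG regions (lower panel, 16 regions) against the distance from the first region on the mitochondrial genome (kb), each bar as wide as its region. Filled bars overlap the other list, open bars do not, and the grey band marks the 4592 bp in which neither list has a region.

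Both ends of the chromosomes held more shared regions than their part of the Otp list. Within 4 Mb of position 1 lay 47 of 260 nuclear shared regions (18.1%, 13.6 to 23.3%), against 137 of 11094 other Otp regions (1.23%) and a background of 1.62% over all nuclear Otp regions. The chromosome 9 cluster supplied 37 of the 47, and counted as loci the share was 4.76%. None lay within 2 Mb of position 1, but no autosome had any Otp region there, the earliest starting at chr9:3000037. The tallest outside chromosome 9 was chr12:3109872-3110114, with 4304 Otp tags (4176 to 4435) and 3195 IgG tags (3085 to 3308) and a ratio of 0.742. On 5 chromosomes (2, 6, 11, 12 and 18) the first Otp region of the chromosome was a shared one.

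The far ends showed the same with less height. Of the nuclear shared regions, 21 (8.08%, 5.07 to 12.1%) lay within 250 kb of the outermost annotated gene or region of a chromosome, against 49 (0.442%) of the other Otp regions and a background of 0.617%. They were spread over 14 chromosomes and had 29 to 187 Otp tags (median 62) and 7 to 37 IgG tags (median 11). The last Otp region of the chromosome was a shared one on 13 of the 21 nuclear chromosomes, and all 13 lay beyond the last annotated gene. By the definition of far ends, such a region counts as one whatever its distance from a gene. On chromosome 3 that region ended the map 745 bp past Wls, the shortest such distance of the 13. On chromosome X it lay 202917 bp past the last gene, the longest, so all 13 were also within 250 kb of the last gene. Telomere repeats and the repeated DNA next to them occupy such ends, but no sequence of these regions was read here.

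Single tall regions stood apart from the clusters. The highest by IgG −log10 q was chr2:98666249-98667328, 1035459 bp from the nearest protein-coding gene end, with 5116 Otp tags (4977 to 5258) and 5204 IgG tags (5064 to 5347). The ratio there was 1.02 (0.979 to 1.06), so the 2 libraries were level in tags while the genome backgrounds stood at 0.171. Its neighbour chr2:98662237-98662965 had 2576 Otp tags and 1678 IgG tags. Next among those outside clusters and chromosome starts came chr6:103649069-103649293, inside Chl1, a gene for a neural cell adhesion molecule, with 2256 Otp tags and 1255 IgG tags. At chr9:35305222-35305591 the pileups were 2923 Otp tags and 1394 IgG tags, and at chrX:143483004-143483112 they were 708 Otp tags and 382 IgG tags. The region chr13:77438907-77439048, inside 2210408I21Rik, had 823 Otp tags and 323 IgG tags. The narrow region on chromosome X had the highest fold enrichment of the shared regions in the Otp list, 113, over a local background of 5.28 tags.

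Shared regions at gene ends were low in IgG. They touched the ends of 79 protein-coding genes (0.361% of 21887, against 27.2% that had any Otp region and 0.379% that had an IgG region at an end), and 58 of the 66 summits lay within 250 bp of an end. Ends of 2 genes at once were met by 13 of 66 (19.7%, 10.9 to 31.3%), against 17.7% of other Otp gene-end regions. The highest by IgG −log10 q were Wls, the carrier of Wnt proteins to the cell surface, with 108 Otp tags (88.6 to 130) and 26 IgG tags, and Lars2, the mitochondrial leucyl-tRNA synthetase, with 129 Otp tags (108 to 153) and 28 IgG tags. The Wls region is also the last Otp region on chromosome 3.

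Below these, no gene-end member exceeded 10 IgG tags. Rap2a, a Ras-like GTPase, had 53 Otp tags and 9 IgG tags, and Slc4a7, a bicarbonate transporter, had 39 Otp tags and 8 IgG tags. Ap2a1, a subunit of the clathrin adaptor AP2, had 74 Otp tags and 9 IgG tags, and Stt3b, a catalytic subunit of oligosaccharyltransferase, had 28 Otp tags and 9 IgG tags. Transcription and chromatin genes among them included Etv5, an ETS factor, with 59 Otp tags and 8 IgG tags, Hinfp, a regulator of histone H4 genes, with 20 Otp tags and 8 IgG tags, and Gatad2a of the NuRD complex with 37 Otp tags and 8 IgG tags. The cytoskeletal gene Myh10 had 36 Otp tags and 8 IgG tags. All of these pairs have more tags in the Otp library, and all of their IgG pileups are 8 or 9 tags.

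Genes of neurons and of protein folding were also present. Rab3a, a GTPase of synaptic vesicles, had 24 Otp tags and 7 IgG tags, and Abat, which degrades the transmitter GABA, had 17 Otp tags and 6 IgG tags. Hspa2, an Hsp70 chaperone, had 29 Otp tags and 8 IgG tags, and Hspa5, the chaperone BiP of the endoplasmic reticulum, had 20 Otp tags and 6 IgG tags. Among the 25 gene-end members highest by IgG −log10 q were also Gm32584, Pigyl, Gpn1, Scai, Smim4, Cep68, Trim45 and Sun1, with 6 to 10 IgG tags over all 25 except Wls and Lars2. At these low pileups the Poisson intervals of the IgG pileups overlap each other, and no order among them can be read.

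Where start sites were listed with a strand, shared regions lay just upstream of them. On the chromosomes with a start-site table, 56 of 252 shared regions (22.2%, 17.2 to 27.9%) had the Otp summit within 1 kb of a start, against 46.4% of other Otp regions. Their summits lay 113 bases upstream at the median (interquartile range 163 to 74 upstream), and 52 of 56 were upstream (92.9%). Other Otp regions lay 70 bases upstream at the median, with 81.6% upstream. The summits of IgG regions lay 74 bases upstream at the median, with 54 of 59 upstream (91.5%), so in distance they were nearer to the other Otp regions than to the Otp summits of shared regions.

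The windows shown for Arntl and Cry2 were typical in holding CCAAT. Of 60 windows (58 genes) under the summits of shared regions, 56 held CCAAT on either strand (93.3%, 83.8 to 98.2%), against 54.7% (53.3 to 56.2%) of 4632 windows under other Otp regions and 38.2% of all 21263 windows. Of the 4 motifs searched on both strands, this was the one with the wide gap. The GC box GGGCGG was in 81.7% (69.6 to 90.5%) of shared windows, against 73.0% of the other Otp windows and 46.2% of all. The homeodomain core TAATTA was in 1 shared window (1.67%), against 2.31% of other Otp windows and 4.53% of all, and the cAMP response element TGACGTCA was in 3.33% of shared windows, against 3.43% of other Otp windows and 2.23% of all. A match of letters is a description and shows no binding. GC content was close in both sets of Otp windows, with a median of 63.8% in shared windows, 62.0% in other Otp windows and 56.3% in all.

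The shares were also set side by side at like pileup. Taking 1 window per region, 50 of 53 shared regions had a box (94.3%, 84.3 to 98.8%), against 54.0% of 4055 other Otp regions. With 20 to 50 Otp tags the shares were 33 of 34 (97.1%, 84.7 to 99.9%) and 65.6% (62.8 to 68.2%) of 1254. With 10 to 20 tags they were 11 of 12 (91.7%, 61.5 to 99.8%) and 49.1% (47.1 to 51.2%) of 2342. With 50 tags or more they were 4 of 5 and 55 of 66 (83.3%, 72.1 to 91.4%), and no difference was detectable at that number.

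**Figure D5:**
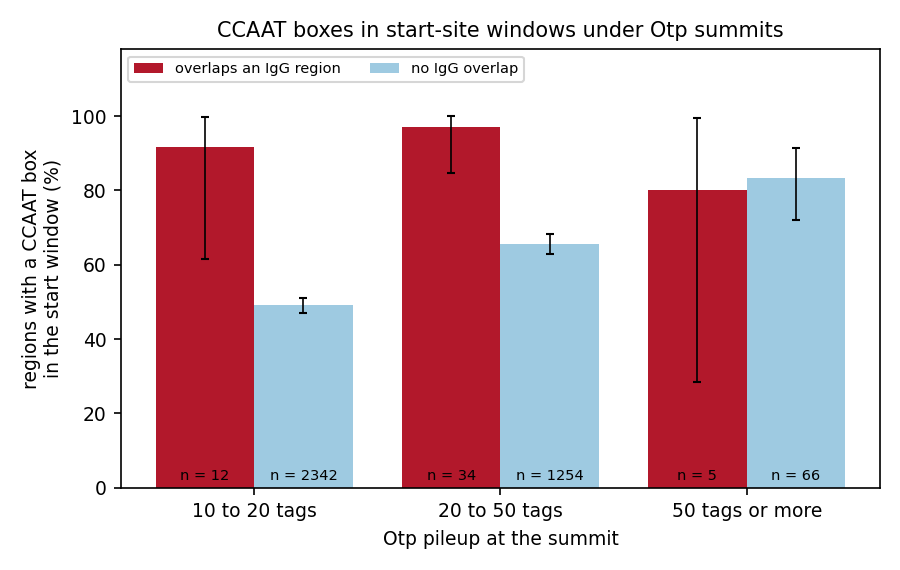
Share of regions whose start-site window holds CCAAT or ATTGG (y axis, percent) by Otp pileup (x axis, tags), for shared regions (red) and other Otp regions (blue), with exact 95% binomial intervals and the number of regions in each bar. The intervals of the 2 groups are apart from 10 to 50 tags and overlap at 50 tags or more.

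Boxes were also more numerous, though not detectably so at 50 Otp tags or more, and close to the IgG summit. Shared regions had 2 boxes per window at the median and at most 8. At least 2 were present in 42 of 53 (79.2%, 65.9 to 89.2%), against 26.6% of other Otp regions, which were mostly weaker. With 10 to 20 Otp tags the shares were 8 of 12 (66.7%, 34.9 to 90.1%) and 21.01% (19.4 to 22.7%). With 20 to 50 tags they were 29 of 34 (85.3%) and 39.9% (37.1 to 42.6%). With 50 tags or more they were 3 of 5 and 44 of 66 (66.7%), and no difference was detectable at that number. Over all shared regions with a box, the IgG summit lay 14.5 bp from the nearest one at the median (interquartile range 6 to 30). The Otp summit of the same regions lay 29 bp from it (11.5 to 45.25). In other Otp regions with a box, the Otp summit lay 33 bp from it (16.75 to 66). More boxes in a window bring a nearer one by number alone, so these distances are not read as a difference between the groups.

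Among nuclear genes, the listed abundantly transcribed and multicopy classes had almost no shared region at an end. The mitochondrial tRNA and ribosomal RNA genes described above are not counted here. Nor is Rn18s-rs5, annotated as a pseudogene, which lies inside the chromosome 17 stretch that held 2 shared regions. For scale, an Otp region lay at an end of 27.2% of all nuclear protein-coding genes and a shared one at 0.361%. Shared regions lay at an end of 0 of 99 ribosomal protein genes, of which 56 had an Otp region, and at 0 of 103 histone genes, of which 52 had one. They lay at 0 of 408 tRNA genes, 0 of 1004 small nuclear RNA genes, 0 of 63 ribosomal RNA genes and 0 of 397 zinc finger genes, of which 55, 31, 1 and 167 had an Otp region. Of 1228 microRNA genes, 1 had a shared region, Mir101c at the edge of the chromosome 9 cluster, and 53 had an Otp region. At a share of 0.361%, lists of this size would hold few or none, so the zeros say little about the lists.

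No marker of a cell type had a shared region at an end. Among 9 genes of PVN neurons, Mc4r, Pou3f2, Sim1 and Trh had an Otp region and none was shared, and among 6 pan-neuronal genes Map2, Snap25 and Syt1 had one. Of the 4 oligodendrocyte genes Mbp had one, and of the 4 astrocyte and 4 microglial genes none had. Of the 5 immediate early genes, Arc, Egr1, Fos and Jun had an Otp region, again without an IgG overlap. These lists are short, and beside shares of 27.2% of protein-coding genes with an Otp region and 0.361% with a shared one, the absence of shared regions says nothing particular about them.

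At 3 shared regions the IgG pileup exceeded the Otp pileup. The tall region on chromosome 2 and Ssx2ip are described above. The third lay inside the Otp gene itself, at chr13:94877158-94877284, with 7 Otp tags (2.81 to 14.4) and 27 IgG tags (17.8 to 39.3). Its ratio of 3.86 (1.64 to 10.5) was the highest of all shared regions, and its interval lay above 1. The 2 summits lay 251 bp apart, with the IgG summit outside the Otp region. The 2 pileups were thus read at different positions and do not compare the libraries at 1 site. A second IgG region inside Otp, chr13:94883106-94883575 with 31 tags, was one of the 11 without an Otp partner. Of the other 10, 1 lay on the mitochondrial genome (219 tags) and 9 had 4 to 8 tags, among them regions at ends of Fbxw2, Chst2 and Tmem267 and inside Dpp9 and Cenpe.

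The edge of the set was sharp in position but not in signal. The shared regions with the least overlap met an IgG region over 8 bp (near Iqch, 10 Otp tags and 5 IgG tags), 28 bp (Gart), 37 bp (Hinfp), 38 bp and 48 bp (Kansl1). The nearest Otp regions without overlap lay 80, 88, 92, 92 and 94 bp from an IgG region, with 299, 403, 62, 429 and 36 Otp tags. In all, 62 Otp regions without overlap lay within 1 kb of an IgG region. Of the Otp regions with no IgG overlap, 7 of the 10 highest by −log10 q lay in the chromosome 9 cluster, with 403 to 616 tags, and the highest elsewhere lay at Sp1 with 125 tags.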

How the data were processed

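CUT&RUN (Epicypher kit) was run on PVN nuclei of WT mice with an Otp antibody or IgG, per the labels, with 1 library each, grouped by the antibody label. The authors deposited 1 narrowPeak list per library on mm10. The tools were MACS2, SAMtools, Picard, Bowtie2 and Trimmomatic, per the submitters' processing notes. Their versions and settings, and whether a control entered peak calling, are not stated there. The deposited fold enrichment is a ratio at the summit, and the −log10 of p and of q are those of the authors' caller; the deposited display score was not used. Otp regions had a −log10 q of at least 2.01 and IgG regions of at least 2.03.

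Regions were called shared at an overlap of 1 bp. In MACS2 the fold is (pileup + 1)/(background + 1) and p the Poisson probability of exceeding the pileup, so together they give a whole pileup. A match within 0.001 of −log10 p (or the rounding of the deposited digits, if coarser) was accepted where the next whole number missed by over 0.005; the calculation recovered simulated pileups. As genome background, the lowest local value that occurred at 3 or more regions was taken. With several IgG regions over 1 Otp region, the highest was used. An IgG region over several Otp regions was paired with each of them. Loci merge shared regions within 10 kb. Gene ends, pseudogenes and start-site windows come from RefSeq tables of GRCm38.p6, the assembly mm10 denotes; the gene table has no strand or exons, and the window table leaves out some chromosomes and genes. Intervals are exact 95% binomial, or Poisson for pileups. Total depth is unknown, and tags amplified by PCR are not independent. No test was run.

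The members and lists were chosen with earlier results of these data known. The position classes, the far ends, the 4 motifs, the CCAAT counts and the layout of the mitochondrial copy were chosen after seeing the data. Named are the 10 highest shared regions by either −log10 q, the 25 highest at gene ends by IgG −log10 q, loci of at least 4 shared regions, mitochondrial regions, listed gene classes, regions with more IgG than Otp tags, and the highest regions outside the overlap; Hspa5, Add3, Arntl, the chromosome 17 stretch and the regions at the overlap limit were added after their values were seen. Alternatives were other overlap rules, thresholds, windows, merge distances and pileup tolerances. Software was pandas 2.3.3, scipy 1.17.1, numpy 2.4.6 and Python 3.11.15.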

Additional observations from a re-analysis of the deposited data

How the results depend on the processing

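Of 34 alternatives, 21 left the value within its interval or within 1.5 times the count, and 13 moved it. The 280 shared regions (2.46%) became 178 (1.56%) with a reciprocal overlap of 50% and 170 (4.32%) with both lists held to a −log10 q of 10 or more, and the share was 2.07% with the Otp summit inside the IgG region. The share of nuclear shared regions at gene ends (25.4%) was 31.5% within 5 kb, 31.2% with all annotated genes, 7.19% with the reciprocal overlap and 34.9% over loci. The median ratio of pileups (0.339) was 0.677 as a ratio of deposited fold enrichments, which divide out the local background, and 0.273 as a median of locus medians. The share near chromosome starts (18.1%) was 0 within 2 Mb, where no autosome had any Otp region, and 4.76% over loci. The median over loci, the start share over loci and the limits of far ends were chosen after seeing the data; the far-end share was 5.77% within 100 kb and 9.23% within 1 Mb. The number of loci was 206 with neighbours merged within 1 kb and 186 within 100 kb. The cause of these shifts was not tested beyond what each rule does by construction. Matching to the mitochondrial genome by sequence and the share of repeat bases, with their alternatives, were not run because they need a genome sequence that is not used here. No paired analysis was possible because the 2 antibodies have a single library each; leaving one out ends the comparison. Pileups under about 10 tags have intervals too wide to rank regions.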
